A study of Mus musculus with 21 samples.

Results

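The 10 genes described here belong to the Notch pathway. They are the receptors Notch1, Notch2 and Notch3, the ligands Dll1, Dll3, Jag1 and Jag2, and the transcription factors Hey1, Heyl and Hes6. They were chosen by gene symbol, and each matched 1 feature in each of the 3 expression tables, which list 42760 features for the linc-Sox2 strain, 42760 for the linc-Foxf1a strain and 40770 for the linc-Brn1b strain. The RNA came from lincRNA knockout mice, and the study refers to the linc-Sox2 strain as Peril and to the linc-Foxf1a strain as Fendrr. Whole brain at E18.5 was taken from linc-Sox2+/+ and linc-Sox2-/- embryos and lung at E14.5 from linc-Foxf1a+/+ and linc-Foxf1a-/- embryos. The linc-Brn1b+/+ and linc-Brn1b-/- animals gave telencephalon (E13.5, E15.5) and brain (P7). The labels list 21 libraries in 10 groups, 2 per group except linc-Brn1b-/- at E15.5 with 3, and how many of these 3 entered the pooled value is not known. In the knockout alleles the lincRNA locus was replaced by a lacZ reporter with a neomycin resistance cassette. This was done in hybrid ES cells with a C57BL/6N father and a mother of a different strain. The mice were backcrossed a single time to C57BL/6J, so the background is mixed. The labels name no treatment for any group.

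Notch receptors are single-pass membrane proteins that are cut when a ligand on a neighbouring cell pulls on them, and the freed intracellular part enters the nucleus, binds RBPJ and switches on Hes and Hey genes. Hes and Hey proteins are basic helix-loop-helix repressors. In the embryonic telencephalon this signal keeps radial glia in a progenitor state, while newborn neurons and intermediate progenitors carry the ligands. In the lung, Notch signalling is known for its part in choosing epithelial fates and in the smooth muscle around vessels.

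The promoters below are shown because these 4 genes are the members that hold the E box CAGCTG, a binding sequence of proneural helix-loop-helix factors. RefSeq promoters, which run from 250 bases before to 50 bases after a gene start on GRCm38.p6, matched 8 of the 10 members with 10 starts, and Hey1 and Heyl had none. The windows are Dll1 at chr17:15376883-15377182, Dll3 at chr7:28301736-28302035, Jag1 at chr2:137116471-137116770 and Hes6 at chr1:91413173-91413472, each on the minus strand and written 5′ to 3′, with CAGCTG in capitals.
Dll1: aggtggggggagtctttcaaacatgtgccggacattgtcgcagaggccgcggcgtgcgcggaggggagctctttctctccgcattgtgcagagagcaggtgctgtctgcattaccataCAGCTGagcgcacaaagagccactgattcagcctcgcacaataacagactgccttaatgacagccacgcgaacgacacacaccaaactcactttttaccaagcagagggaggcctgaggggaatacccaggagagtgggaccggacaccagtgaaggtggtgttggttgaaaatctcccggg
Dll3: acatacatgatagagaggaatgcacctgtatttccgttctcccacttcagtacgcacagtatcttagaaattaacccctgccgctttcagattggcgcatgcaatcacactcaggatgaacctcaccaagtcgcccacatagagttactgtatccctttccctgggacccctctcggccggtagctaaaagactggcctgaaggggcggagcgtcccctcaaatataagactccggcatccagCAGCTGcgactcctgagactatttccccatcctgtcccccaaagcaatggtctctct
Jag1: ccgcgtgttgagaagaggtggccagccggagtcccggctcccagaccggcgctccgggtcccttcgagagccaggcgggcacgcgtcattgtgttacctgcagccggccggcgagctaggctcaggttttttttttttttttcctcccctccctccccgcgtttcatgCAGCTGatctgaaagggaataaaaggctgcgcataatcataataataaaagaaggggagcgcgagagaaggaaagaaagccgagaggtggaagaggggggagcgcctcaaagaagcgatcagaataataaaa
Hes6: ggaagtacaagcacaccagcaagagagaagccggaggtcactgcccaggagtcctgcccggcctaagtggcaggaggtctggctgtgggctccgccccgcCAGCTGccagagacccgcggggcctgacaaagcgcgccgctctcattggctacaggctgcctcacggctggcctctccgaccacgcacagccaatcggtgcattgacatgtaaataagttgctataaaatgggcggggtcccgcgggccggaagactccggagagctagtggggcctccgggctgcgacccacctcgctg
The first base of the E box lay 132 bases before the start in Dll1, 7 before in Dll3, 82 before in Jag1 and 150 before in Hes6. Hes6 has a further start, with the E box 171 bases before it, and Dll1 has a further start without a match. Among all 32851 mouse promoters of that length, 16.3% hold CAGCTG, which reads the same on both strands. The E box CAGATG, on either strand in 17.2% of all promoters, the RBPJ motif GTGGGAA, in 6.38%, and its core TGGGAA, in 25.6% and contained in the longer motif, were in none of the members' windows. These matches are descriptions of letters, and binding was not measured.

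Each table holds 1 expression value per gene and group, in FPKM (fragments scaled by transcript length and by the mapped fragments of the library). This is the authors' value for the libraries of a group together. Values per library and depths were not used here, since each column holds a group, so no spread between animals or standard deviation could be given. No test was made here, and the authors' own test results were not used. All differences below are differences between pooled values. A difference is that of log2(FPKM + 1), and a gene counts as past the fold when it is at least 1.5-fold higher or lower on that scale, with a mean of both groups of at least 1 FPKM. The scale understates differences of low genes. The tables were normalized separately, so levels set side by side across strains are a description only. In bulk tissue, fewer cells of a type and less RNA per cell cannot be told apart.

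The labels were checked on the targeted loci. AK011913, which overlaps the linc-Brn1b deletion by 6312 bases, was at 8.71, 8.73 and 1.1 FPKM in wild type at E13.5, E15.5 and P7, and at most 0.0267 FPKM in linc-Brn1b-/-. In lung, linc-Cox4nb-4, which spans the Fendrr deletion, was at 38.4 FPKM in wild type and 0.045 in knockout. In the Peril strain the order was the opposite, since linc-Atp11b-4, with 9447 bases inside the deletion, was at 0.0109 FPKM in the group labelled wild type and at 4.65 in that labelled knockout. This feature runs from 34654563 to 34676217 on chromosome 3 and the deletion from 34666771 to 34681214, so a part of the feature lies outside the deletion. Its value is thus not a check of the labels like that of AK011913. For Peril and Fendrr, which value is that of wild type was inferred from the order in the linc-Brn1b strain, as their headers do not state it. Directions for Peril are therefore given for the group labelled knockout under that order. Sex moved with genotype in every comparison. The 4 Y-linked genes Uty, Ddx3y, Kdm5d and Eif2s3y summed to 0.0256 FPKM in wild type and 26.4 in the group labelled knockout of Peril, to 33.6 and 0 in Fendrr, and to 49.2 and 0.0133 at E13.5, 0.00662 and 21.0 at E15.5 and 0.0357 and 23.2 at P7 in linc-Brn1b, so genotype and sex cannot be told apart. Tissues carried their own markers. The 9 neuron markers measured summed to 1670 to 3800 FPKM in the 8 brain groups and to 33.8 and 36.6 FPKM in lung, where 5 of them passed the minimum. The 10 lung epithelium markers summed to 1420 and 1430 FPKM in lung and to 120 to 206 FPKM in brain, where the list is not specific to lung, as Id2 alone was at 55.9 to 169 FPKM. The surfactant gene Sftpc was at 819 and 871 FPKM in lung and at most 0.247 in brain.

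Of the 10 genes, Hes6 had the highest level in all 10 groups. Its level was 70.9 FPKM in wild type and 65.7 in linc-Brn1b-/- at E13.5, 54.9 and 57.1 at E15.5, and 21.4 and 17.1 at P7. It was 36.5 and 35.5 FPKM in E18.5 brain of Peril, and 22.8 and 23.4 FPKM in E14.5 lung of Fendrr, where Notch2 at 22.3 and 19.9 FPKM and Notch3 at 20.1 in both groups were close behind. The lowest member differed between tissues. In lung it was Dll3, at 0.173 and 0.0652 FPKM, and in the embryonic telencephalon it was Heyl, at 1.31 to 2.48 FPKM. Pooled values give no spread, so neighbours in this order cannot be said to differ.

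**Figure D1:**
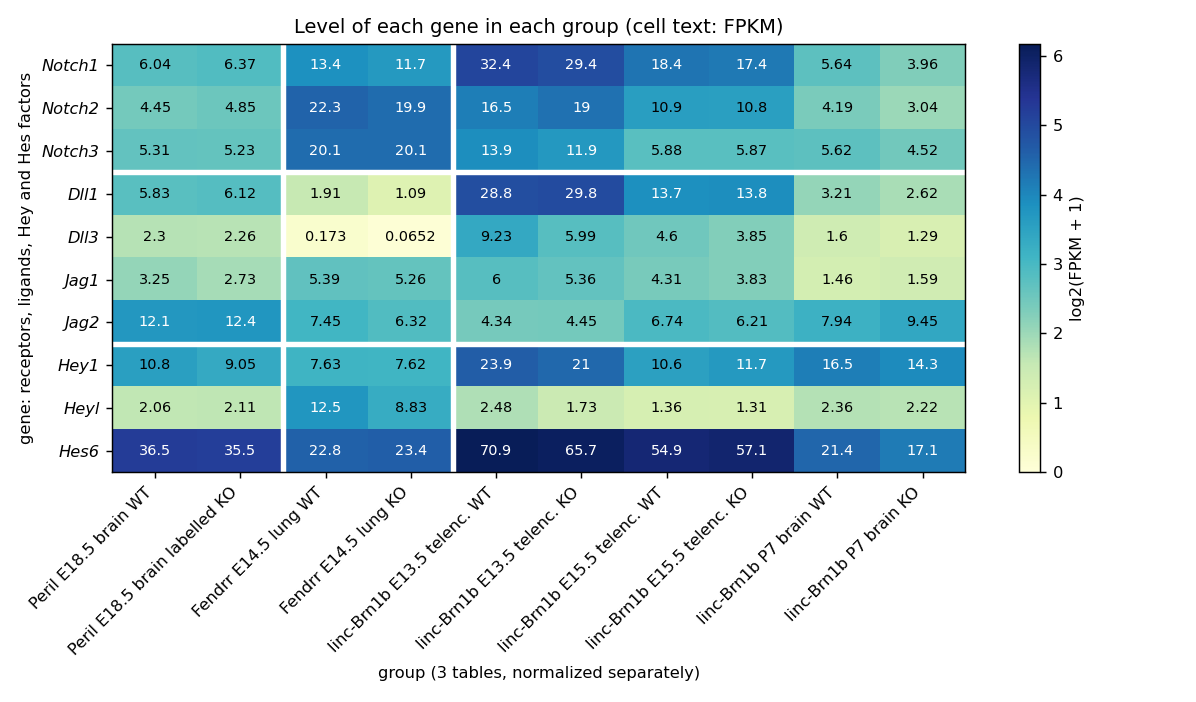
Heat map of the level of each gene (rows, by role) in each of the 10 groups (columns), coloured by log2(FPKM + 1) with the FPKM written in each cell and white lines between roles and between separately normalized tables. Hes6 is the darkest row, and the linc-Brn1b columns become paler from E13.5 to P7 in Notch1, Notch2, Dll1, Dll3, Jag1 and Hes6.

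In the linc-Brn1b strain, receptor levels were highest at E13.5 and lowest at P7 in both genotypes. Notch1, on chromosome 2 of mm9 from 26313423 to 26372183 (minus strand), is the main receptor of radial glia, and was at 32.4 FPKM in wild type and 29.4 in linc-Brn1b-/- at E13.5, 18.4 and 17.4 at E15.5, and 5.64 and 3.96 at P7. Notch2, on chromosome 3 from 97817461 to 97954290 (plus strand), was at 16.5 and 19.0 FPKM at E13.5, 10.9 and 10.8 at E15.5, and 4.19 and 3.04 at P7. Both receptors were lower at each later age in both genotypes. P7 is whole brain and the earlier ages are telencephalon, and the share of all genes that separate by age in the same way was not counted. Notch3, on chromosome 17 from 32257765 to 32303825 (minus strand), is known as the receptor of vascular smooth muscle and pericytes, and was at 13.9 and 11.9 FPKM at E13.5, 5.88 and 5.87 at E15.5, and 5.62 and 4.52 at P7. In wild type its lower level was thus reached by E15.5, while in linc-Brn1b-/- the P7 level was 77.0% of that at E15.5. Over the 6 groups the highest level was 8.18 times the lowest for Notch1, 6.25 times for Notch2 and 3.08 times for Notch3.

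The proportions of the receptors also differed between groups. Notch1 made up 51.6% of the summed FPKM of the 3 receptors in wild type and 48.7% in linc-Brn1b-/- at E13.5, 52.3% and 51.1% at E15.5, and 36.5% and 34.4% at P7. Notch3 made up 22.1% and 19.7% at E13.5, 16.7% and 17.2% at E15.5, and 36.4% and 39.2% at P7. The 3 receptors summed to 62.9 and 60.3 FPKM at E13.5 and 35.1 and 34.0 at E15.5, and the share of Notch3 was largest at P7, when the sum was smallest. In lung, Notch1 had the smallest share, 23.9% and 22.6%, and Notch2 made up 40% and 38.4%. In E18.5 brain of Peril the shares of Notch1 were 38.2% in wild type and 38.7% in the group labelled knockout. Taking Notch4, the fourth receptor of the mouse, into the sum moved no share by more than 3.4 percentage points.

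The ligands followed opposite courses. Dll1, the main activating Delta ligand of the embryonic brain, on chromosome 17 from 15504318 to 15513836 (minus strand), was at 28.8 FPKM in wild type and 29.8 in linc-Brn1b-/- at E13.5, 13.7 and 13.8 at E15.5, and 3.21 and 2.62 at P7, an 11.4-fold range that was the widest of the 10 genes in this strain. Dll3, a divergent Delta protein that acts in the cell that makes it, on chromosome 7 from 29076673 to 29087257 (minus strand), was at 9.23 and 5.99 FPKM at E13.5, 4.60 and 3.85 at E15.5, and 1.6 and 1.29 at P7. Jag1, a Serrate-type ligand, on chromosome 2 from 136907192 to 136942380 (minus strand), was at 6.0 and 5.36 FPKM at E13.5, 4.31 and 3.83 at E15.5, and 1.46 and 1.59 at P7. All 3 were lower at each later age in both genotypes. Jag2, the other Serrate-type ligand, on chromosome 12 from 114146801 to 114167706 (minus strand), ran the other way, with 4.34 and 4.45 FPKM at E13.5, 6.74 and 6.21 at E15.5, and 7.94 and 9.45 at P7. Dll1 made up 59.6% and 65.3% of the summed ligand FPKM at E13.5, and Jag2 made up 55.9% and 63.2% at P7. The ratio of Jag2 to Jag1 was 0.723 and 0.83 at E13.5, 1.56 and 1.62 at E15.5, and 5.44 and 5.94 at P7.

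Outside the linc-Brn1b strain, Jag2 was the leading ligand of E18.5 brain, at 12.1 FPKM in wild type and 12.4 in the group labelled knockout of Peril, against 5.83 and 6.12 for Dll1, 3.25 and 2.73 for Jag1 and 2.3 and 2.26 for Dll3. In Fendrr lung, Jag2 was at 7.45 and 6.32 FPKM and Jag1 at 5.39 and 5.26, and the Delta ligands were low, with Dll1 at 1.91 and 1.09. Jag1 and Jag2 made up 36.1% and 49.9% of the summed ligand FPKM in wild-type lung and 41.3% and 49.6% in knockout. The ratio of Dll1 to Jag1 was 0.355 in wild type and 0.206 in knockout, against 4.8 and 5.56 in E13.5 telencephalon.

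**Figure D2:**
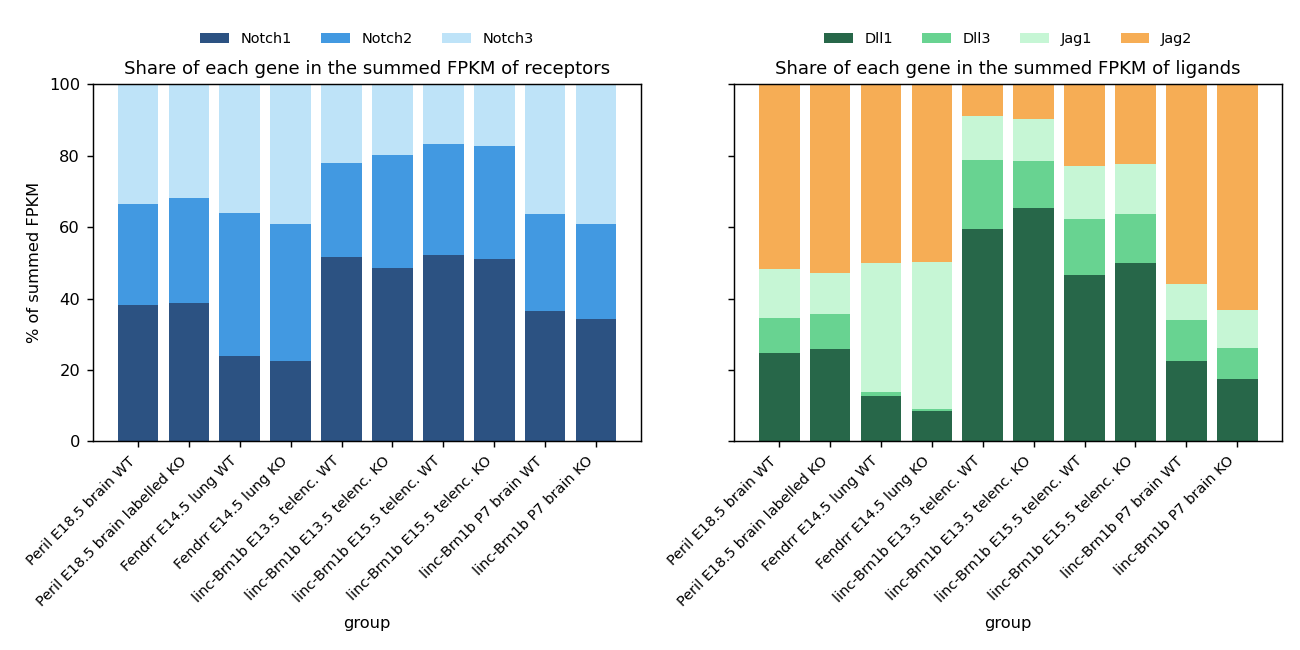
Stacked bars of the share of each receptor (left) and ligand (right) in the summed FPKM of its set, in percent, for the 10 groups. Dll1 fills 59.6% and 65.3% of the ligand bar at E13.5, Jag2 fills 55.9% and 63.2% at P7, and the Notch1 share is smallest in lung, at 23.9% and 22.6%.

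The Hey genes were lowest at E15.5. Hey1, a repressor induced by Notch, on chromosome 3 from 8663362 to 8667039 (minus strand), was at 23.9 FPKM in wild type and 21.0 in linc-Brn1b-/- at E13.5, 10.6 and 11.7 at E15.5, and 16.5 and 14.3 at P7. Heyl, a related factor best known from vessel walls, on chromosome 4 from 122910799 to 122927118 (plus strand), was at 2.48 and 1.73 FPKM at E13.5, 1.36 and 1.31 at E15.5, and 2.36 and 2.22 at P7. In both genotypes the level of each gene at E15.5 was below the levels at the other ages. Hes6, on chromosome 1 from 93308060 to 93310615 (minus strand), differs from other Hes proteins in that it promotes neuronal differentiation and opposes Hes1, and its levels, given above, were lower at each later age. In E18.5 brain, Hey1 was at 10.8 and 9.05 FPKM and Heyl at 2.06 and 2.11. Lung had 7.63 and 7.62 FPKM of Hey1 and, at 12.5 and 8.83 FPKM, more Heyl than any brain group, and it was the tissue in which the ratio of Hey1 to Heyl was below 1, at 0.609 and 0.862.

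**Figure D3:**
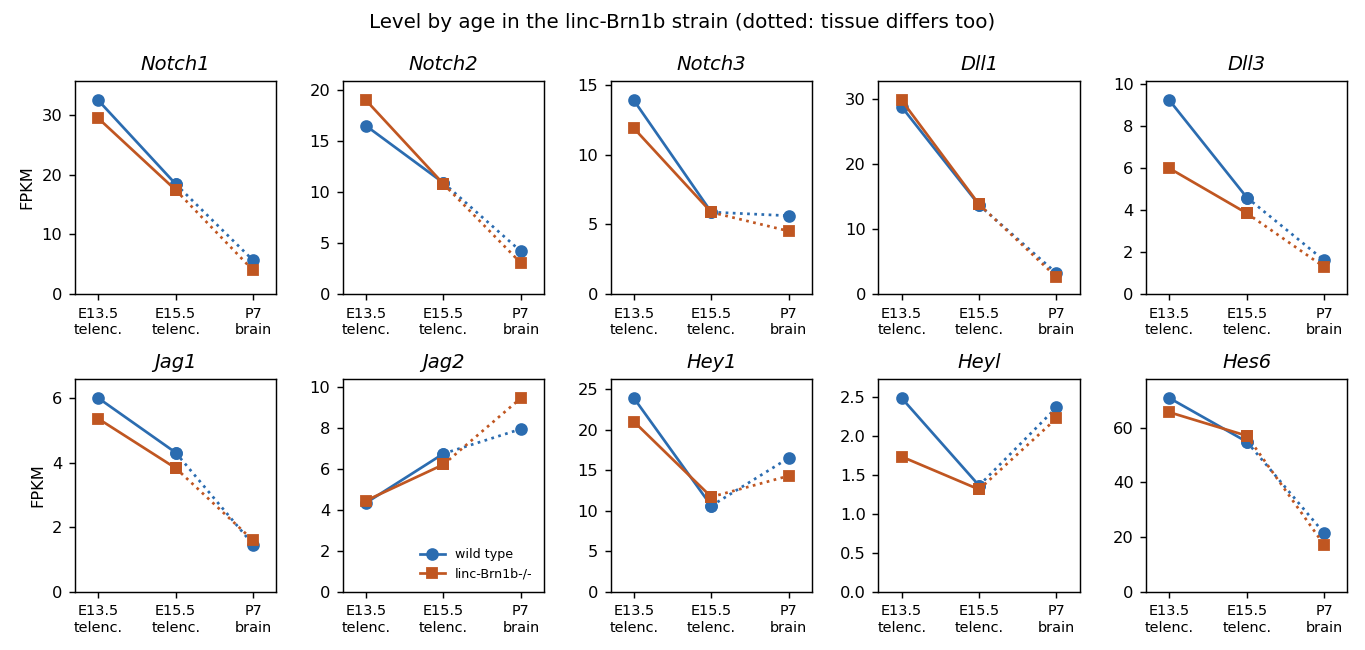
Level in FPKM (each axis starts at 0) of the 10 genes at E13.5 and E15.5 in telencephalon and at P7 in whole brain, in wild type (circles) and linc-Brn1b-/- (squares), with dotted lines where the tissue differs as well as the age. Points of both genotypes lie close together at E15.5, Dll1 runs from 28.8 and 29.8 FPKM to 3.21 and 2.62, and Jag2 is the gene that is higher at each later age.

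From E13.5 to E15.5, a comparison within the same tissue, 5 of the 10 genes were lower past the fold and none higher, in wild type and in linc-Brn1b-/- alike. The wild-type count depends on the scale, since at a pseudocount of 0.1 it is 8, with Jag2 (0.62) passing as higher, and at 2-fold it is 3, against 1 in linc-Brn1b-/-. Over all genes above the minimum, 8.06% were lower and 8.66% higher in wild type, and 7.56% lower and 10.4% higher in linc-Brn1b-/-. The members' median difference was -0.68 in wild type and -0.63 in linc-Brn1b-/-, against 0.01 and -0.03 over all genes. Notch1, Notch3, Dll1 and Hey1 were the 4 genes past the fold in both genotypes. Notch3 had a difference of -1.12 in wild type and -0.91 in linc-Brn1b-/-, Hey1 of -1.10 and -0.80, Dll1 of -1.02 and -1.06, and Notch1 of -0.79 and -0.73. Dll3 passed in wild type, at -0.87 against -0.53, and Notch2 in linc-Brn1b-/-, at -0.76 against -0.56, but at a pseudocount of 0.1 both passed in both genotypes (Dll3 at -0.99 and -0.62, Notch2 at -0.60 and -0.81). Jag2 was the gene with a positive difference, 0.54 and 0.40. The Y-linked sum went from 49.2 to 0.00662 FPKM in wild type and from 0.0133 to 21.0 in linc-Brn1b-/-, and the part of sex in the age differences was not tested. In each genotype, 9 of the 10 members had a difference below 0, as did 48.8% of all genes in wild type and 53.2% in linc-Brn1b-/-. Neuron markers moved with age, 9 of 9 having a difference above 0 in wild type and 8 of 9 in linc-Brn1b-/-, with sums of 1680 and 1670 FPKM at E13.5 and 2710 and 2750 at E15.5. Radial glia markers were mixed, with 4 of 10 lower and 1 higher past the fold in wild type, where the sum was 1440 and then 1250 FPKM, and 5 lower and 3 higher in linc-Brn1b-/-, where it was 1220 and then 1340. Sox2, one of the lower markers, was at 100 and 92.6 FPKM at E13.5 and 50.8 and 52.5 at E15.5, while Tnc, an extracellular matrix protein, was at 5.97 and 10.7 against 26.6 and 31.1. Of the 10 intermediate progenitor markers, 4 were lower past the fold and none higher in each genotype. Their sums were 317 and 363 FPKM at E13.5 and 261 and 265 at E15.5. Endothelial markers were lower past the fold in 4 of 10 cases in wild type, while in linc-Brn1b-/- 1 was higher and none lower. The part of cell composition in the Notch differences was not tested.

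From E15.5 telencephalon to P7 brain, where age and tissue differ together, 6 genes were lower past the fold in both genotypes, namely Notch1, Notch2, Dll1, Dll3, Jag1 and Hes6. This background is wide, with 27.2% of all genes lower and 23.5% higher in wild type and 27.4% and 24.5% in linc-Brn1b-/-. Dll1 had the largest difference of the members, -1.81 in wild type and -2.03 in linc-Brn1b-/-, followed by Notch1 at -1.54 and -1.89, Hes6 at -1.32 and -1.68 and Notch2 at -1.20 and -1.54. Dll3 was at -1.11 and -1.08 and Jag1 at -1.11 and -0.90. The members' medians were -1.11 and -0.99, against -0.10 over all genes in both genotypes. Hey1 was higher past the fold in wild type, at 0.59, and short of it in linc-Brn1b-/-, at 0.27. Heyl had differences of 0.51 and 0.48, which pass the fold at a pseudocount of 0.1 (0.75 and 0.72). Jag2 had differences of 0.21 and 0.53, the latter past the fold at a pseudocount of 0.1 (0.60) and after centring (0.63), and Notch3 of -0.06 and -0.32. Of 9 intermediate progenitor markers above the minimum, 8 were lower past the fold at P7 in wild type and 9 in linc-Brn1b-/-, with sums of 261 and 265 FPKM at E15.5 and 60.6 and 30.8 at P7, and all 10 astrocyte markers were higher past the fold in both genotypes, with sums of 162 and 169 against 1470 and 1370. Mural markers, which are expressed by the cells in which Notch3 and Heyl are best known, summed to 38.1 and 36.2 FPKM at E15.5 and 64.5 and 56.0 at P7. Their part in the differences was not tested.

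**Figure D4:**
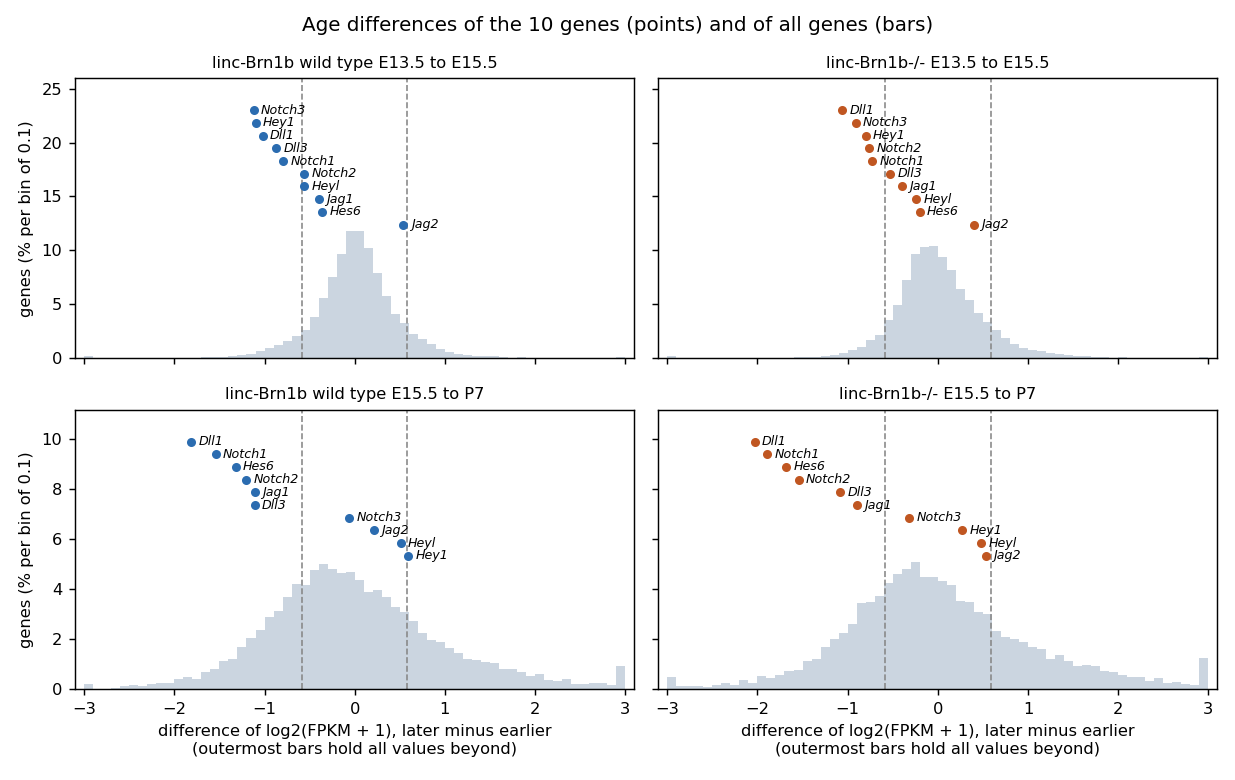
Difference of log2(FPKM + 1), later minus earlier age, for the 10 genes (labelled points, stacked for legibility) above the histogram of all genes in percent per bin, with dashed lines at 1.5-fold. The members' medians lie at -0.68 and -0.63 for E13.5 to E15.5 and at -1.11 and -0.99 for E15.5 to P7, to the left of the bulk of all genes, and Jag2 lies to the right in each panel.

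The genotype comparisons ask whether these genes differ in the absence of a lincRNA. None of the 10 genes passed the fold in any of the 5 comparisons, of the 9 above the minimum in lung and the 10 in the others. At E15.5 telencephalon, 0.274% of all genes were lower and 0.2% higher, and the members' differences lay between -0.21 for Dll3 and 0.13 for Hey1, with a median of -0.02 against 0.01 over all genes. Dll3 had a larger absolute difference than 96.6% of all genes at this age, at 4.60 FPKM in wild type and 3.85 in knockout. Jag1 at -0.14 and Hey1 at 0.13 exceeded 90.9% and 90.1% of all genes in absolute size. The median absolute difference was 0.07 for the members and 0.04 over all genes. The receptors had small differences, -0.07 for Notch1, larger than for 73.1% of all genes, and -0.01 for Notch2.

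At E13.5 telencephalon, where 5.52% of all genes were lower and 1.55% higher, Dll3 had the largest difference of the members, -0.55, with 9.23 FPKM in wild type and 5.99 in linc-Brn1b-/-. It passes the fold at a pseudocount of 0.1 (-0.62) and after centring on the median of all genes (-0.61). Heyl followed at -0.35, Notch3 at -0.21 and Notch2 at 0.19, and the members' median was -0.14 against 0.06 over all genes. Differences below 0 were seen for 7 of the 10 genes and for 41.1% of all genes. The 10 endothelial markers all had a difference below 0 at this age, 1 of them past the fold, with a median of -0.41 and sums of 86.4 and 58.8 FPKM. The 7 mural markers above the minimum also had differences below 0, 1 of them past the fold, with sums of 32.7 and 24.8. Radial glia markers had a difference below 0 in 7 of 10 cases, 1 lower and 1 higher past the fold, with sums of 1440 and 1220 FPKM. Intermediate progenitor markers were above 0 in 8 of 10 cases, with sums of 317 and 363. Neuron markers were above 0 in 8 of 9 cases, with a median of 0.30 and sums of 1680 and 1670. The part of any of these cells in the members' values was not tested.

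At P7, where 2.24% of all genes were lower and 2.08% higher, 8 of the 10 genes had a difference below 0, against 47.8% of all genes, and the members' median was -0.21 against 0.01. The largest differences were those of Notch1 at -0.42, Notch2 at -0.36, Hes6 at -0.30 and Notch3 at -0.26. Jag2 at 0.22 and Jag1 at 0.07 were the genes with a positive difference. All 10 radial glia markers had a difference below 0 in the same comparison, with a median of -0.50, 4 of them past the fold and sums of 1230 FPKM in wild type and 743 in linc-Brn1b-/-. Intermediate progenitor markers were mixed. Of the 7 above the minimum, 5 had a difference below 0, 3 of them past the fold, and 2 had one above 0, with a median of -0.16. The intermediate progenitor list summed to 60.6 and 30.8 FPKM, and the endothelial sums were level at 94.2 and 93.7. The part of these cells in the receptor values was not tested. Notch1, Notch3, Dll3 and Heyl had a difference below 0 in each of the 3 linc-Brn1b comparisons. Notch3 was level in E15.5 telencephalon, however, with 5.88 FPKM in wild type and 5.87 in linc-Brn1b-/-, and Heyl had a difference of -0.03 there. Of all genes, 41.1% were below 0 in the E13.5 comparison, 46.5% in that of E15.5 and 47.8% in that of P7. The share of genes below 0 in all 3 was not counted, so these signs are not read as a consistent difference.

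In E18.5 brain of Peril, where 0.666% of all genes were lower and 0.958% higher in the group labelled knockout, the largest differences were -0.23 for Hey1, which was at 10.8 and 9.05 FPKM, and -0.19 for Jag1. The members' median was 0.01 against 0 over all genes, with 5 genes above 0 and 5 below, and 49.2% of all genes were below 0. All 10 endothelial markers had a difference below 0, with a median of -0.24 and sums of 116 and 98.7 FPKM, and mural markers summed to 54.4 and 39.7. Their part in the Hey1 and Jag1 values was not tested.

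In Fendrr lung, 0.808% of all genes were lower and 1.41% higher in knockout. Dll1 had a difference of -0.48 at a low level, 1.91 against 1.09 FPKM, and Heyl of -0.46 at 12.5 against 8.83 FPKM, larger in absolute size than the differences of 96.7% and 96.5% of all genes. Dll1 passes the fold at a pseudocount of 0.1, with a difference of -0.76. Notch1 was at -0.18, Notch2 at -0.16 and Jag2 at -0.21, while Notch3 and Hey1 were the same to within 0.1 FPKM in both groups. Dll3 stayed under the minimum. Markers of other cell types moved with genotype in lung. The cardiac muscle markers were higher in knockout in 10 of 10 cases, 9 past the fold, with sums of 385 FPKM in wild type and 1170 in knockout, and Myl7, an atrial myosin light chain, was at 147 and 422. Of the endothelial markers, 9 of 10 had a difference below 0 and none passed the fold, with a median of -0.29 and sums of 501 and 416 FPKM. Of all genes, 48.6% had a difference below 0. Mural markers were mixed, with 4 above 0, 6 below 0 and 1 past the fold, and summed to 433 and 411 FPKM. The part of these cells in the values of Heyl and Dll1 was not tested.

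**Figure D5:**
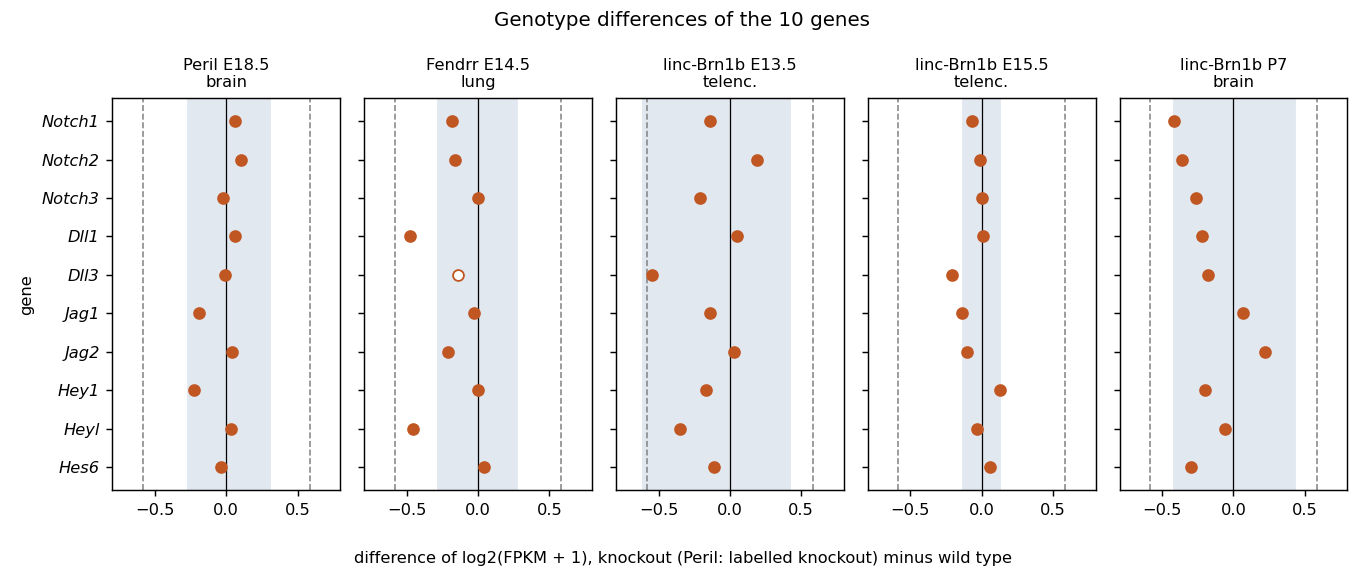
Difference of log2(FPKM + 1), knockout minus wild type (group labelled knockout for Peril), of the 10 genes in the 5 genotype comparisons, with dashed lines at 1.5-fold, a shaded band from the 5th to the 95th percentile of all genes and an open point for a gene under the minimum level. No point lies beyond a dashed line, and the points nearest to one are Dll3 at E13.5 (-0.55), Dll1 (-0.48) and Heyl (-0.46) in lung and Notch1 at P7 (-0.42).

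The rest of the pathway was read from a list of 50 genes. In the genotype comparisons, none of the 44 to 47 genes above the minimum passed the fold, save Dlk1, a non-canonical ligand, which was lower at E13.5 with 10.3 FPKM in wild type and 6.16 in linc-Brn1b-/- (-0.66), and Neurl1a, an E3 ligase of ligand endocytosis, which was higher at P7 with 18 and 29.2 FPKM (0.67). Of all genes, 5.52% were lower and 1.55% higher at E13.5, and 2.24% and 2.08% at P7. In the other genotype comparisons each share lay between 0.2% and 1.41%. Counts this small are therefore not read as a trait of the pathway. From E13.5 to E15.5, 9 of 47 genes above the minimum were lower and 2 higher in wild type, where 8.06% and 8.66% of all genes were, and 8 of 48 were lower and 3 higher in linc-Brn1b-/-, where 7.56% and 10.4% were. All 4 Hes, Hey and direct target genes above the minimum were lower in both genotypes, Hes1, Hes5, Hey2 and Nrarp. Hes5, the main Notch effector of radial glia, was at 46.9 and 34.1 FPKM at E13.5 and 18.3 and 19.7 at E15.5, and Hes1, its partner in that role, at 21.1 against 9.38 in wild type, with differences of -1.09 and -0.94. The ubiquitin ligase Mib1, which drives ligand uptake, was at 42.8 and 44.2 FPKM against 23.0 and 22.7. None of the 12 genes of the nuclear complex passed the fold in this step.

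From E15.5 to P7, 15 of the 46 pathway genes above the minimum were lower and 7 higher in wild type, where 27.2% and 23.5% of all genes were, and 13 of 47 were lower and 9 higher in linc-Brn1b-/-, where 27.4% and 24.5% of all genes were. Of these, 13 were lower and 7 higher in both. In the nuclear complex, 8 of 12 genes were lower in wild type and 7 of 12 in linc-Brn1b-/- and none higher, beside the same shares of all genes and with no test of the list, among them Rbpj, the DNA-binding partner of the receptors, at 34.7 and 34.6 FPKM against 7.67 and 6.55 (-2.04 and -2.24). Mfng, a Fringe glycosyltransferase that tunes ligand choice, was at 24.2 and 24.9 FPKM against 3.54 and 2.65. Of the ligand endocytosis genes, 2 of 4 were higher in wild type and 3 of 4 in linc-Brn1b-/- and none lower, with Neurl1a at 4.27 and 4.55 FPKM against 18 and 29.2. Dner, a neuronal membrane protein related to the Delta ligands, was at 57.7 and 60.5 FPKM against 125 and 110. The receptor proteases were mixed, with Aph1b lower and Psen2 higher in both genotypes.

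Over the 6 linc-Brn1b groups the members were compared by Pearson's r of log2(FPKM + 1), a description over 6 pooled values that share a table, a scaling and 3 ages. Notch1, Notch2, Dll1, Dll3, Jag1 and Hes6 had r of at least 0.95 with each other, while Jag2 had r between -0.96 and -0.90 with these 6. Hey1 and Heyl had r = 0.71 with each other and 0.36 and -0.32 with Notch1. With 6 points such values are common, and of 10607 genes compared 2215 had r of at least 0.95 with Dll1, 170 with Notch3, 39 with Hey1 and 23 with Heyl. The genes closest to Notch3 were Mrc2, an endocytic collagen receptor, and Fn1, fibronectin, at r = 0.9994 and 0.995, those closest to Dll1 were Nedd1 and Incenp, both proteins of the mitotic apparatus, and those closest to Hes6 were Zfp503 and Ctnnbl1. Kif18b, a mitotic kinesin, and Ddx19a were closest to Notch1, Ankrd13a and Atad5 to Notch2, Hmga1 and Scrn2 to Dll3, Trip10 and BC057022 to Jag1, Mmp17 and Fam100a to Jag2, Rcn1 and Cln6 to Hey1, and Elovl1 and Gatad1 to Heyl.

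Some features of the tables overlap a member. The Hes6 feature is 1740 bases long in the linc-Brn1b table and 55228 bases long in the others, where it overlaps Per2 at 3.05 to 4.41 FPKM, and the Dll3 feature is 8231 bases long in the former and 17134 in the others, where it overlaps BC089491 at 0.583 and 0.931 FPKM in E18.5 brain. For Dll1 in E18.5 brain, an antisense feature was at 1.11 and 1.19 FPKM beside 5.83 and 6.12, and reads of overlapping genes cannot be told apart if strand was not used in the counting, which is not given in the sources used here. In Fendrr lung, where Dll1 was at 1.91 and 1.09 FPKM, its antisense features were at 0.233 and 0.133 in wild type and 0.0497 and 0.101 in knockout. The antisense and other features that overlap Notch2, Notch3 and Jag1 were at 0.353 FPKM or less, and those that overlap Notch1 at 0.401 or less.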

How the data were processed

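RNA-Seq libraries (TruSeq, paired-end) were made from tissue RNA of wild-type and lincRNA knockout mice. The authors used TopHat2 for alignment (mm9) and Cufflinks (version 2.0.2 per the labels) for assembly, and ran Cuffdiff2 with default options. The deposited FPKM values are Cuffdiff2 estimates, scaled across the libraries of a table and pooled to 1 value per gene and group. Columns of values per library numbered 0, so depth and replicate error are unknown. The tables also hold the authors' fold changes, test statistics, p-values, q-values and significance calls, none of which was used.

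FPKM columns were mapped to groups by their headers. In the linc-Brn1b strain, values that recur over comparisons showed that the first value belongs to the group named second. The Peril and Fendrr headers read only KO_WT, and the same order was assumed for them, so wild type is the first value there. Differences of log2(FPKM + 1) were computed within a table with Python 3.11.15, numpy 2.4.6 and pandas 2.3.3 (figures, matplotlib 3.10.9), and counted past 1.5-fold among genes with a mean of at least 1 FPKM. The fold rule was checked on E13.5 wild-type values with some genes multiplied by known folds, and the motif search on made strings. These checks cover the arithmetic only. The members and lists were chosen with earlier results of these data known. Named genes were all members, up to 3 other pathway genes per comparison with the largest difference past the fold, the 2 genes with the pattern closest to each member (at least 5 FPKM in a group), and list genes where they move with a result. Hey2, Nrarp, Dner, Aph1b and Psen2 were named after their values were seen. Positions are of mm9 (NCBIM37, GENCODE vM1), with 1 added to the tables' starts, and promoters of GRCm38.p6 (RefSeq). Marker lists held 10 genes each (endothelial, mural, radial glia, intermediate progenitor, neuron, astrocyte, cardiac muscle, lung epithelium), of which Map2 was not matched. Alternatives were a pseudocount of 0.1, no minimum level or one of 5 FPKM, centring on the median of all genes, a 2-fold threshold and receptor shares with Notch4.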

Additional observations from a re-analysis of the deposited data

How the results depend on the processing

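At a pseudocount of 0.1, the number of members past the fold was 1 in Fendrr lung (Dll1) and 1 in E13.5 telencephalon between genotypes (Dll3), where it was 0 with a pseudocount of 1, and 8 instead of 5 from E13.5 to E15.5 in wild type, 1 of them (Jag2) higher. A smaller pseudocount gives more weight to low values. Centring on the median of all genes gave 1 member (Dll3) in E13.5 telencephalon between genotypes. At 2-fold, 3 members passed from E13.5 to E15.5 in wild type and 1 in linc-Brn1b-/-, as a stricter threshold must give fewer. The counts moved by 1.5 times or less under the other planned settings, including no minimum level and one of 5 FPKM. Of the 90 differences of single members, 81 kept their call at a pseudocount of 0.1 and 87 after centring, and no difference past the fold changed sign. Centring changed the sign of a few small differences. These were Dll1 (0.05 to -0.01) and Jag2 (0.03 to -0.03) between genotypes at E13.5 and Notch3 from E15.5 to P7 in wild type (-0.06 to 0.04). The sign also changed for Notch3 between genotypes in Fendrr lung, where the difference rounds to 0.0 before and after. The shift removed by centring was -0.10 from E15.5 to P7 in both genotypes and between -0.03 and 0.06 elsewhere. No paired analysis was possible because each column holds the pooled value of a group, and for the same reason no replicate could be left out. Depth and replicate error are unknown and the authors' own test results were not used, so no difference here was set against the spread between animals. Genotype moves with sex.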
